A study of Mus musculus with 6 samples.

Results

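The collagen genes of the mouse liver were followed in single-cell RNA counts of 6 libraries, 2 from each of 3 groups. Members were all symbols of the form Col, number, a, number that held at least 20 unique molecular identifiers (UMIs, counted transcript molecules) over the 6 count matrices. Of 31253 annotated features, 44 had such a symbol and 38 reached the minimum. Col4a6 with 29 UMIs and Col22a1 with 30 UMIs lay just inside it, and Col2a1 with 11 UMIs and Col11a1 with 9 UMIs just outside. The groups were control livers (genotype label "ctrl"), pre-metastatic livers and macro-metastatic livers from mice with orthotopic colorectal tumours. All 6 libraries, also those of control livers, carry the cell label CT26-GFP, which stands for mouse colon carcinoma cells that express green fluorescent protein. The mice's strain, sex and age were not given in the sources used here. Livers were digested with collagenase II, freed of erythrocytes and dead cells and captured on the BD Rhapsody system. Nothing states that the 2 libraries of a group came from separate animals. The p-values therefore rest on the spread between libraries alone, and that spread may be technical.

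Collagens are matrix proteins built from alpha chains that wind around each other into a rod-like helix. Fibrillar chains (types I, III, V, XI, XXIV and XXVII) form tensile fibres, type IV chains form the sheet of basement membranes, type VI chains form beaded filaments, and other types attach to fibres or span the cell membrane. In the liver, stellate cells and portal fibroblasts are the known makers of fibrillar collagen in fibrosis, while the sinusoidal endothelium lines vessels that lack a continuous basement membrane.

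The control libraries held 44976402 and 41914149 UMIs, the pre-metastatic ones 48764379 and 51750676 and the macro-metastatic ones 88986627 and 90819751. Of 71908 barcodes, 65398 cells were kept. Library pairs shared between 126 and 222 cell barcode sequences. Cells were clustered without any collagen gene, and clusters were named from collagen-free markers. The prediction of doublets and the scaling of each cell to its total used all genes, collagens included. Class names are by likeness of markers. Levels are given as CPM, a gene's UMIs scaled to 1000000 UMIs of the class in a library. They take no account of transcript length and are compared between libraries and classes, not between genes. Free RNA of the cell suspension adds UMIs to all barcodes, so B cells, which lack most collagens, serve as a rough background beside low values. Classes differ in UMIs per cell, so the same amount of free RNA gives them different CPM.

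Over all barcodes, collagen genes together had 345 and 446 CPM in control, 226 and 403 in pre-metastatic libraries and 462 and 894 in macro-metastatic libraries. Both macro-metastatic libraries lay above the rest, and pre-metastatic and control livers overlapped. Within kept cells alone, the sums were 416 and 537 CPM in control, 232 and 433 in pre-metastatic libraries and 474 and 938 in macro-metastatic libraries, so that the first macro-metastatic library lay below the second control library. The cells that held these UMIs differed by stage. Endothelial cells held 67.3% and 71.0% of the collagen UMIs of kept cells in control libraries, 52.2% and 55.2% in pre-metastatic libraries and 53.6% and 36.5% in macro-metastatic libraries. In the macro-metastatic libraries, a cluster of 28 and 76 cells that occurred in no other library (cluster 58) held another 25.8% and 32.2%. Tumour cells held 10.4% in the second macro-metastatic library. Kupffer cells, the resident macrophages, held 12.9% and 7.86% in control, 23.6% and 17.0% in pre-metastatic libraries and 3.06% and 2.22% in macro-metastatic libraries. Stellate cells and fibroblasts held between 0.8% and 8.87% of a library's collagen UMIs.

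**Figure D1:**
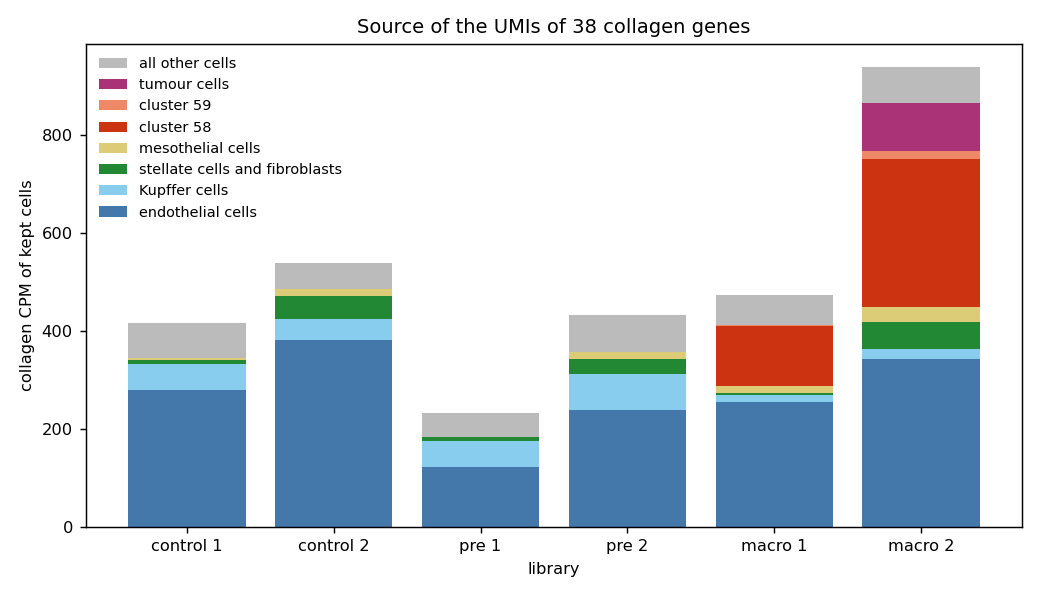
Collagen CPM of all kept cells (y axis) in each of the 6 libraries (x axis, ordered by stage), stacked by cell class. The endothelial share was the largest in every library, and cluster 58 appeared only in the 2 macro-metastatic libraries.

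Single genes had different sources. Over all libraries, endothelial cells held 75.4% of the Col4a1, 77.0% of the Col4a2 and 77.8% of the Col13a1 UMIs. Cluster 58 held 69.2% of Col3a1, 64.5% of Col1a1 and 55.0% of Col1a2. Stellate cells and fibroblasts held 40.0% of Col14a1, whose product attaches to fibril surfaces. Hepatocytes held 57.3% of Col18a1, the gene of the endostatin precursor, over all libraries, with 77.8% in control, 87.5% in pre-metastatic libraries and 3.77% in macro-metastatic libraries, where cluster 58 held 45.2%. Tumour cells held 83.4% of Col8a1, a short-chain network collagen. B cells held 57.1% of Col6a4, at 25.6 to 39.9 CPM in each library, so for this gene they are no background.

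**Figure D2:**
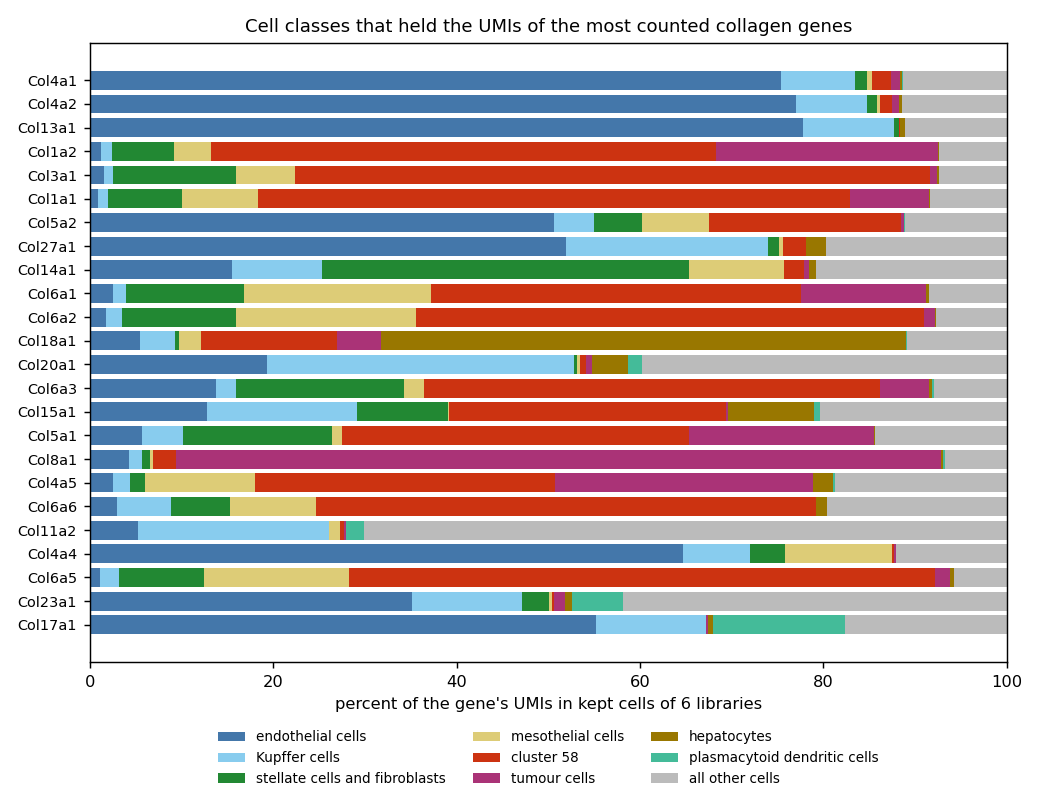
Percent of each gene's UMIs in the kept cells of the 6 libraries (x axis) held by each cell class (colours of the stacked bars), for the 24 most counted collagen genes (y axis, most counted at the top). Endothelial cells form the longest piece of Col4a1, Col4a2 and Col13a1, cluster 58 that of Col1a1, Col1a2, Col3a1 and most type VI genes, hepatocytes that of Col18a1 and tumour cells that of Col8a1.

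Type IV collagen rose in the liver endothelium with macro-metastases. Col4a1 and Col4a2 encode the chains of the ubiquitous basement membrane network and are transcribed away from each other from a shared promoter. In the annotation of build GRCm38 they lie at chr8:11198423-11312826 on the minus strand and chr8:11312805-11449287 on the plus strand, and their first bases overlap by 22 bases. The overlap is shown because both genes that lead the endothelial result start in it, with a match to GGGCGG, the GC box bound by Sp1-type factors, in capitals (RefSeq, GRCm38.p6, chr8:11312805-11312826, plus strand).
Col4a1 and Col4a2 overlap: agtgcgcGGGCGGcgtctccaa

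Endothelial Col4a1 stood at 415 and 387 CPM in control, 516 and 442 in pre-metastatic libraries and 804 and 833 in macro-metastatic libraries. Both macro-metastatic libraries lay above all 4 others. Col4a1 averaged 819 ± 20.3 in macro-metastatic and 401 ± 19.7 in control endothelium (SD, n = 2 libraries each), a log2 fold change of 1.21 (SE 0.159, adjusted p = 0.001649, edgeR's quasi-likelihood test). Endothelial Col4a2 stood at 227 and 206 CPM in control, 313 and 267 in pre-metastatic libraries and 464 and 437 in macro-metastatic libraries, with no overlap between the 3 groups. It averaged 451 ± 18.6 in macro-metastatic and 217 ± 14.8 in control endothelium, a log2 fold change of 1.24 (SE 0.154, adjusted p = 0.001268). Against pre-metastatic endothelium, with means of 479 ± 52.5 for Col4a1 and 290.3 ± 32.7 for Col4a2, the macro-metastatic libraries were higher by 0.95 (SE 0.158, adjusted p = 0.007139) for Col4a1 and 0.81 (SE 0.153, adjusted p = 0.012) for Col4a2. Without the first or the second pre-metastatic library, the adjusted p of this comparison was 0.0534 and 0.06072 for Col4a1 and 0.07796 and 0.09366 for Col4a2. Between pre-metastatic and control endothelium the log2 differences of 0.26 for Col4a1 (adjusted p = 0.8192) and 0.43 for Col4a2 (adjusted p = 0.4714) did not pass the test.

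**Figure D3:**
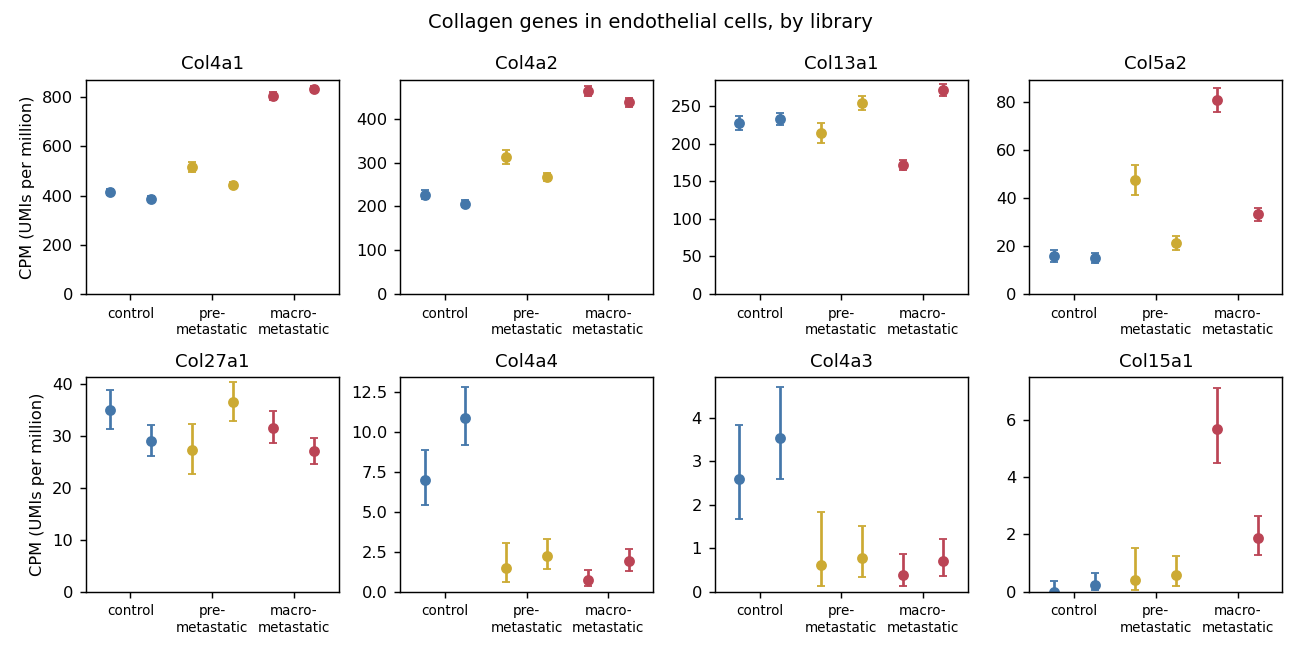
CPM of endothelial cells (y axes) for 8 collagen genes (panels) in each of the 6 libraries (x axes, ordered by stage), with exact 95% Poisson intervals that cover counting error only. Col4a1 and Col4a2 are highest in both macro-metastatic libraries, Col4a3 and Col4a4 are highest in both control libraries, and the Col13a1 groups overlap.

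The share of Col4a2 in the pair moved little. Col4a2 made up 35.4% and 34.7% of the summed Col4a1 and Col4a2 UMIs of endothelium in control, 37.8% and 37.7% in pre-metastatic libraries and 36.6% and 34.4% in macro-metastatic libraries, so that the pre-metastatic libraries lay highest. In tumour cells of the second macro-metastatic library it made up 31.8%, and in stellate cells and fibroblasts 27.6% and 28.2% in macro-metastatic libraries and 33.3% to 36.0% in pre-metastatic and control libraries.

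The endothelial class was carried by different clusters at different stages. Clusters 0 and 7 held most endothelial cells of control and pre-metastatic livers, and cluster 3, led by Apold1, Inhbb, Selp and Sele, held 1256 of 1693 and 2465 of 2519 endothelial cells of the macro-metastatic livers. Within cluster 0, Col4a1 stood at 418 and 388 CPM in control, 524 and 440 in pre-metastatic libraries and 754 and 528 in macro-metastatic libraries, the last from 26 UMIs. Within cluster 7, it stood at 406 and 389 in control, 498 and 468 in pre-metastatic libraries and 713 and 758 in macro-metastatic libraries, the last from 15 UMIs. In both clusters the macro-metastatic values were again the highest, but those of the second library come from only 18 and 9 cells. In cluster 0, its 528 from 26 UMIs cannot be told from the 524 of the first pre-metastatic library. What the change of clusters adds to the endothelial rise was not tested. The summed level of the 15 endothelial markers in this class was 22935 and 22431 CPM in control, 23606 and 24630 in pre-metastatic libraries and 20295 and 18537 in macro-metastatic libraries.

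Of the 19 collagen genes with enough counts to be tested in endothelium, 6 rose and 2 fell in macro-metastatic against control livers, where 26.4% of all 12443 genes tested were called, 16.7% higher and 9.61% lower. The median log2 fold change of these 19 genes was 0.44, against −0.02 over all genes tested. Without either control library 3 of the tested collagen genes were called. Against pre-metastatic livers 5 rose and none fell (background 14.9%, with 11.3% higher and 3.58% lower), and 0 and 1 were called without the first and the second pre-metastatic library. In macro-metastatic against control endothelium, TMM scaling moved the median of all genes by 0.18 (log2) relative to library totals, with the same counts of calls. None was called between pre-metastatic and control endothelium (background 0.217%); 4 had an unadjusted p under 0.05 in edgeR's test, and DESeq2 called 1.

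**Figure D4:**
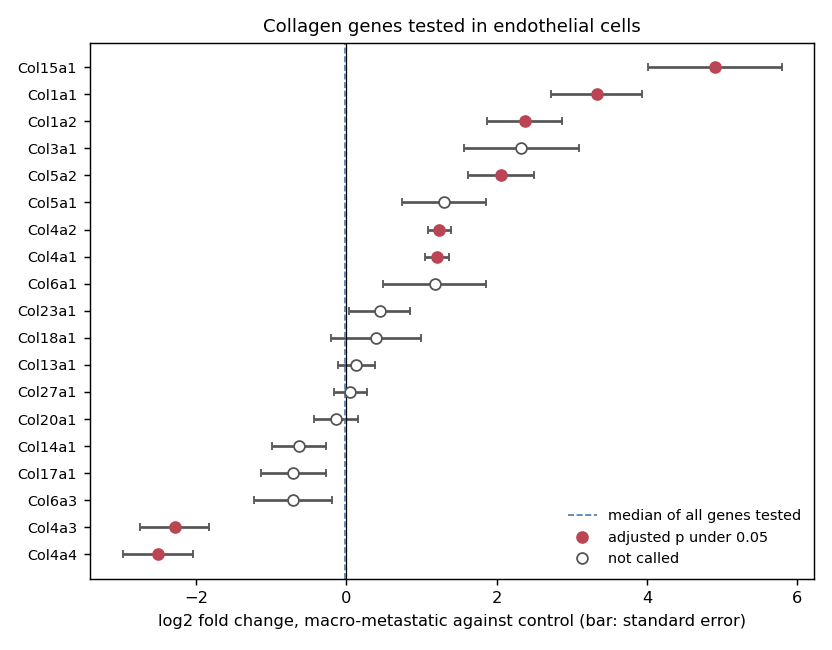
Log2 fold change of 19 collagen genes in endothelial cells, macro-metastatic over control livers (x axis), with its SE as bars; filled points passed edgeR's quasi-likelihood test at adjusted p under 0.05. The dashed line marks the median of all genes tested, and Col4a3 and Col4a4 are the only called genes to its left.

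Col4a3 and Col4a4, which encode chains of a second type IV network best known from kidney and lung, went the other way. They too are transcribed away from each other, Col4a4 at chr1:82448423-82586849 on the minus strand and Col4a3 at chr1:82586921-82722059 on the plus strand. The 71 bases between them are shown because both genes fell together (RefSeq, GRCm38.p6, chr1:82586850-82586920, plus strand); no match to the CCAAT box, to GGGCGG, to the CCCTCCCC motif or to the TATA box TATAAA was found on either strand, and windows of the same length and offset from a start site hold GGGCGG in 20.7% and CCAAT in 13.3% of 32851 promoter entries.
Col4a4 and Col4a3 spacer: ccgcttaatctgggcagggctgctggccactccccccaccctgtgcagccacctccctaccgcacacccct
Endothelial Col4a4 stood at 6.97 and 10.8 CPM in control, 1.46 and 2.20 in pre-metastatic libraries and 0.748 and 1.92 in macro-metastatic libraries. Endothelial Col4a3 stood at 2.60 and 3.54 in control, 0.627 and 0.766 in pre-metastatic libraries and 0.374 and 0.697 in macro-metastatic libraries. For both genes the control libraries lay above all others and the later groups overlapped. In macro-metastatic against control endothelium, Col4a4 changed by −2.51 (SE 0.467, adjusted p = 0.007325) and Col4a3 by −2.28 (SE 0.464, adjusted p = 0.01025) on the log2 scale. Without the first control library the adjusted p of Col4a3 was 0.06247, and without the second it was 0.1005 for Col4a3 and 0.07526 for Col4a4. Pre-metastatic against control values of −2.19 for Col4a4 (adjusted p = 0.1757) and −2.06 for Col4a3 (adjusted p = 0.2081) did not pass the test. B cells held 1 UMI of Col4a4 and none of Col4a3 over the 6 libraries.

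Col13a1, a transmembrane collagen, was the third most counted collagen of endothelium and did not move with the type IV pair. It stood at 227 and 233 CPM in control, 214 and 254 in pre-metastatic libraries and 171 and 272 in macro-metastatic libraries, with means of 222 ± 70.8 in macro-metastatic and 230.3 ± 4.10 in control endothelium (log2 fold change 0.13 on TMM-scaled sizes, SE 0.244, adjusted p = 0.7099). Its sign rests on the scaling and on 1 library, with −0.06 on library totals and −0.28 without the second macro-metastatic library. Col27a1, a fibrillar collagen of cartilage, ranged from 27.0 to 36.5 CPM over the 6 libraries, Col14a1 from 4.11 to 12.4 and Col20a1, which attaches to fibres, from 2.92 to 3.99, and none of the 3 was called in endothelium.

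Col5a2, whose chain helps to set fibril diameter, rose in endothelium. It stood at 15.7 and 15.1 CPM in control, 47.5 and 21.1 in pre-metastatic libraries and 80.8 and 33.2 in macro-metastatic libraries. The second macro-metastatic library lay below the first pre-metastatic library, and every library of both later groups lay above the controls. The log2 fold change was 2.05 in macro-metastatic against control (SE 0.437, adjusted p = 0.01203) and 0.93 against pre-metastatic endothelium (adjusted p = 0.1684, not called). Without the first or the second control library, the adjusted p against control was 0.1003 and 0.1074. Col15a1, a collagen of the zone next to basement membranes, had 0 and 3 UMIs in control endothelium, 2 and 6 in pre-metastatic endothelium and 76 and 32 in macro-metastatic endothelium. The ratio of macro-metastatic to control levels was 26.9, with an exact 95% counting interval from 8.98 to 133. The fitted log2 fold change was 4.90 against control (SE 0.885, adjusted p = 0.006414; 0.06407 without the first control library) and 2.96 against pre-metastatic livers (adjusted p = 0.03817, between 0.06308 and 0.1939 without either control library, either pre-metastatic library or the first macro-metastatic library, and 0.1008 with cells gated one by one on markers). B cells held 1 Col15a1 UMI in all, and between 0 and 4.37 CPM of Col5a2 in a library.

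The type I genes Col1a1 and Col1a2 were also called higher in macro-metastatic endothelium, but at low CPM, mostly below those of B cells. Endothelial Col1a2 stood at 1.46 and 1.28 CPM in control, 0.627 and 0.383 in pre-metastatic libraries and 3.59 and 8.72 in macro-metastatic libraries. B cells had no Col1a2 UMI in control libraries, which allows up to 2.64 and 2.14 CPM, none in pre-metastatic libraries, and 1.46 and 16.4 CPM in macro-metastatic libraries. Endothelial Col1a1 stood at 0.208 and 0.452 in control, 0 and 0.191 in pre-metastatic libraries and 2.32 and 3.89 in macro-metastatic libraries, and B cells of the macro-metastatic libraries had 5.82 and 5.70. In macro-metastatic against control endothelium, log2 fold changes were 2.37 for Col1a2 (SE 0.4995, adjusted p = 0.01157) and 3.33 for Col1a1 (SE 0.604, adjusted p = 0.00656). Without the first or the second control library the adjusted p was 0.08844 and 0.1077 for Col1a2 and 0.07865 and 0.05644 for Col1a1. Against pre-metastatic endothelium they were 3.87 (adjusted p = 0.006737) and 4.64 (adjusted p = 0.00769), the second on 2 pre-metastatic UMIs (ratio 24.4, exact 95% counting interval 6.58 to 204). Without the first pre-metastatic library the adjusted p was 0.0534 for Col1a2 and 0.06039 for Col1a1, and without the second 0.07838 for Col1a2. Col3a1 ranged from 0.209 to 7.55 CPM in endothelium and was not called against control (2.33, adjusted p = 0.05596). In macro-metastatic libraries these endothelial values did not exceed those of B cells except for Col1a2 in the first library, and no expression of these genes by endothelium is read from them. Both classes differ in UMIs per cell, so this comparison of CPM cannot show that the endothelial values are background. The part of free RNA in them was not tested.

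Fibrillar collagen lay in few cells of mesenchymal kind. The class of stellate cells and fibroblasts held 14 and 63 cells in control, 8 and 28 in pre-metastatic libraries and 5 and 40 in macro-metastatic libraries, under the 20 cells per library required for a test, so its values carry none. Collagen genes together made up 3721 and 4575 CPM of this class in control, 6344 and 11439 in pre-metastatic libraries and 7666 and 11138 in macro-metastatic libraries. Every library of both later groups lay above the controls, and the later groups overlapped. The class joined 2 clusters of unlike collagen content. Cluster 56 was led by Reln, Colec11 and Rgs5, and cluster 61 was led by Dpt, Mfap5 and Lum and held 1 to 9 cells per library.

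In cluster 56, Col14a1 stood at 791 and 1248 CPM in control, 1228 and 1178 in pre-metastatic libraries and 1931 and 1435 in macro-metastatic libraries. Col1a2 stood at 292 and 511 in control, 603 and 544 in pre-metastatic libraries and 599 and 705 in macro-metastatic libraries, and Col3a1 ranged from 258 to 544 with overlap of all groups. Col1a1 ranged from 17.2 to 340 CPM and also overlapped between groups. In cluster 61 Col3a1 stood between 3308 and 12262, Col1a2 between 3298 and 9937 and Col1a1 between 1484 and 7822 CPM. Each of these cluster 61 values exceeded every cluster 56 value of the same gene. The cells of cluster 61 were 1 of 14 and 2 of 63 cells of the class in control, 1 of 8 and 9 of 28 in pre-metastatic, and 1 of 5 and 8 of 40 in macro-metastatic libraries.

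Cluster 58 had higher summed collagen levels than any named class of the same libraries. It was led by Fndc1, Adgrd1, Chl1, Serpinb2, Pdpn and Mgp, and Wt1, a mesothelial marker, was detected in 88.5%, Pdgfra, a fibroblast marker, in 77.9%, and the stellate markers Reln and Lrat each in 0.962% of its cells. Markers of both kinds were thus detected, and the cluster was left unnamed under the naming rule given below. Its median depth was 20878 UMIs per cell. In macro-metastatic libraries 1 and 2 it held 6617 and 4940 CPM of Col1a2, 4884 and 5005 of Col3a1 and 4543 and 3687 of Col1a1. These 3 genes code for the chains of the type I and type III fibres of scar tissue. The regulators of fibre diameter were also high there, with 470.2 and 535 CPM of Col5a2, 203 and 157 of Col5a1 and 126 and 106 of Col5a3. Collagen genes together made up 19509 and 17532 CPM of this cluster.

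The promoter stretches of Col1a2 and Col3a1 are shown because these genes lead the fibrillar result; capitals mark matches to the CCAAT box, to GGGCGG, to the CCCTCCCC motif or to the TATA box TATAAA on either strand (RefSeq, GRCm38.p6). Col1a2 lies at chr6:4504814-4541544 and Col3a1 at chr1:45311538-45349706, both on the plus strand. The Col1a2 stretch is chr6:4505370-4505492, the longest run before the RefSeq start that no annotated exon of the gene covers, with 2 GGGCGG matches, the second of which overlaps a CCCTCCCC match on the minus strand. Such windows hold GGGCGG in 13.3% and CCCTCCCC in 3.73% of 32851 promoter entries.
Col1a2: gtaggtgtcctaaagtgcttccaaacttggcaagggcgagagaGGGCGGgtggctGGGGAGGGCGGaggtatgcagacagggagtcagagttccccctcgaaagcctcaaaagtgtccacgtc
The 250 bases before the Col3a1 start, chr1:45311288-45311537, hold 1 TATAAA match, which 12.4% of such windows hold, and have 35.2% G and C.
Col3a1: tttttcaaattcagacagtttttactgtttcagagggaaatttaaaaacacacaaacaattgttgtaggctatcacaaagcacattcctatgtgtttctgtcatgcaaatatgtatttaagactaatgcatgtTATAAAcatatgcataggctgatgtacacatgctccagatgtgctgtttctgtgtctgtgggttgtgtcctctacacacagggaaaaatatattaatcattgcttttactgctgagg

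**Figure D5:**
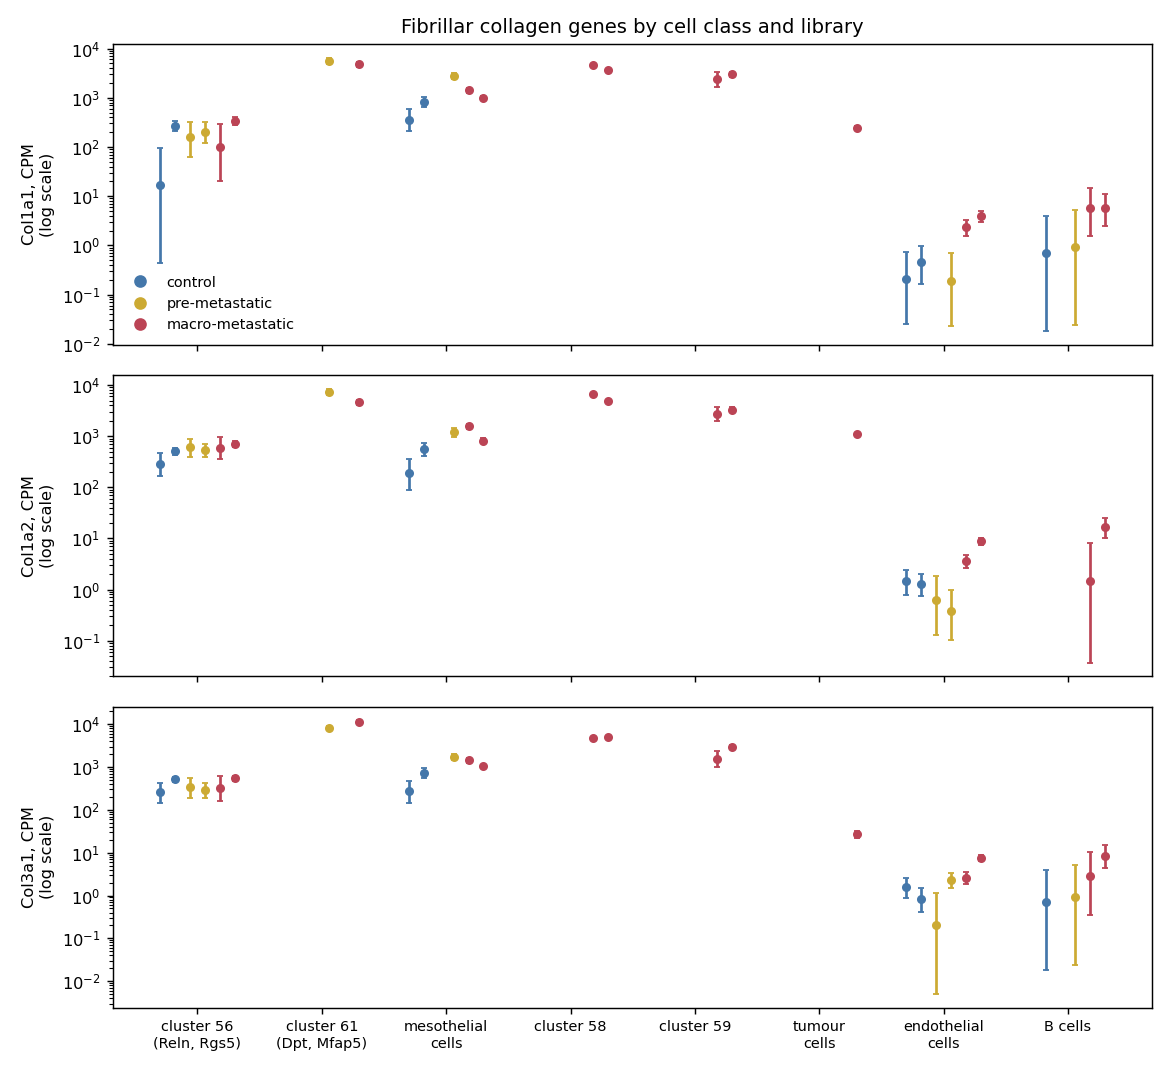
CPM (y axis, log scale) of Col1a1, Col1a2 and Col3a1 (panels) in mesenchymal clusters, mesothelial cells, tumour cells, endothelial cells and B cells (x axis), 1 point per library with at least 4 cells and 1 UMI, coloured by group, with exact 95% Poisson intervals that cover counting error only. Clusters 61 and 58 lie highest, and endothelial cells lie near B cells.

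Mesothelial cells, the lining of the liver capsule, numbered 6 and 23 in control, 0 and 12 in pre-metastatic libraries and 10 and 25 in macro-metastatic libraries. Their Col1a1 stood at 361 and 821 CPM in control, 2737 in the second pre-metastatic library and 1408 and 999.9 in macro-metastatic libraries. Their Col14a1 was lower in every library of the later groups than in control, with 1445 and 1242 in control, 542 in the second pre-metastatic library and 215 and 256 in macro-metastatic libraries. Cluster 59, unnamed and shallow with a median of 911 UMIs per cell, shared leading genes with cluster 58 and held 2412 and 2994 CPM of Col1a1 in macro-metastatic libraries from 16 and 74 cells. Cluster 57, unnamed and mixed between stellate and Kupffer markers, held Col1a1 at 222 and 27.9 in control, 24.6 and 88.2 in pre-metastatic libraries and 1718 and 735 in macro-metastatic libraries.

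Tumour cells held type I collagen transcripts. Of 394 cells in this class, which had 4 of 12 tumour markers and Krt20 among its leading genes, 390 came from the second macro-metastatic library, so it allows no test. There, Col1a2 stood at 1110.1 CPM (exact Poisson 95% interval 1078 to 1143), Col1a1 at 247 (232 to 263) and Col3a1 at 26.7 (22.0 to 32.2). For each Col1a2 UMI, these tumour cells held 0.222 Col1a1 and 0.0241 Col3a1 UMIs, and cluster 58 of the same library held 0.746 and 1.01, so the mix of fibrillar transcripts differed between both sources. Krt20 had 0 UMIs in cluster 58 of this library. Col8a1 stood at 134 CPM (123 to 145) in these tumour cells, and its 250 bases upstream are shown because this gene was held mainly by them (RefSeq, GRCm38.p6, chr16:57754738-57754987, minus strand). Capitals mark 4 GGGCGG matches and 1 CCCTCCCC match on either strand, and the stretch has 60.8% G and C, against 35.2% for Col3a1. At least 1 GGGCGG match lies in 32.7% of such windows, and at least 1 CCCTCCCC match in 9.69%. The share of windows with 4 GGGCGG matches was not counted.
Col8a1: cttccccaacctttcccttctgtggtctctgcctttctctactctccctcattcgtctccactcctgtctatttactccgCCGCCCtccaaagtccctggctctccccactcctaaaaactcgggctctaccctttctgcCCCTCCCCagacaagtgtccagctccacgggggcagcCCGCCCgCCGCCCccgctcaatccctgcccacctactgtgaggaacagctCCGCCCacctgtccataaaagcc
Other collagens of these tumour cells were Col4a1 at 123, Col6a1 at 91.5, Col4a2 at 57.6, Col5a1 at 42.4, Col4a5 at 36.9 and Col16a1 at 27.0 CPM.

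Summed over all barcodes, where fewer cells of a type and less RNA per cell cannot be told apart, 35 of the 38 members had enough counts to be tested. Col28a1, Col22a1 and Col4a6, with 29 to 35 UMIs, did not. In macro-metastatic against control livers 9 rose and 4 fell, where 42% of all 16414 genes were called, 22% higher and 20% lower, and 2 and 4 were called without the first and the second control library. In macro-metastatic against pre-metastatic livers 7 rose and none fell (background 23.6%, with 12.4% higher and 11.2% lower), with 1 to 11 called when a library was left out, the fewest without the first pre-metastatic library. None was called in pre-metastatic against control livers (background 1.4%); 3 had an unadjusted p under 0.05 in edgeR's test, and DESeq2 called 3. The median log2 fold change of the 35 genes in macro-metastatic against control livers was 1.32, against 0.01 over all genes tested.

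Among the fibrillar genes, Col1a2 stood at 4.16 and 8.26 CPM in control, 1.805 and 9.87 in pre-metastatic libraries and 48.2 and 156 in macro-metastatic libraries. Col3a1 stood at 3.02 and 8.57 in control, 1.805 and 10.995 in pre-metastatic libraries and 35.3 and 110.1 in macro-metastatic libraries, and Col1a1 at 1.51 and 5.42 in control, 0.779 and 9.12 in pre-metastatic libraries and 33.9 and 90.7 in macro-metastatic libraries. For all 3 genes both macro-metastatic libraries lay above the other 4. Log2 fold changes against control were 4.06 for Col1a2 (SE 0.949, adjusted p = 0.01821), 3.67 for Col3a1 (SE 1.01, adjusted p = 0.03081) and 4.20 for Col1a1 (SE 1.21, adjusted p = 0.03546). Of these, Col1a2 alone was called against pre-metastatic livers, with 4.18 (adjusted p = 0.02812). Each of these 4 calls was lost without the first control library (adjusted p from 0.06328 to 0.1772), without the second (from 0.06409 to 0.1032) and without the second macro-metastatic library (from 0.05025 to 0.0936), Col1a1 also without the first macro-metastatic library (0.0502) and Col1a2 against pre-metastatic livers also without the first pre-metastatic library (0.07667). Cluster 58 held 81.5% and 51.2% of the Col1a2, 82.3% and 72.8% of the Col3a1 and 79.5% and 65.3% of the Col1a1 UMIs of kept cells in macro-metastatic libraries 1 and 2, and tumour cells of the second library held 33.2% of its Col1a2. With clusters 58 and 59 and tumour cells left out, Col1a2 stood at 8.59 and 23.5 CPM of kept cells in macro-metastatic libraries, against 5.07 and 10.03 in control libraries, and the groups overlapped. Col3a1 then stood at 6.36 and 29.2 in macro-metastatic, against 3.58 and 10.4 in control libraries. Col1a1 then stood at 6.94 and 18.99 in macro-metastatic, 0.823 and 10.2 in pre-metastatic and 2.03 and 6.81 in control libraries. Both macro-metastatic Col1a1 values lay above control, the first narrowly, and overlapped with the pre-metastatic ones.

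Col5a2 had the smallest SE of the called genes and kept both calls without each library in turn, with 5.58 and 7.30 CPM in control, 7.26 and 8.25 in pre-metastatic libraries and 19.5 and 21.6 in macro-metastatic libraries. Its log2 fold change was 1.71 against control (SE 0.191, adjusted p = 0.002054) and 1.52 against pre-metastatic livers (SE 0.189, adjusted p = 0.005486). Without clusters 58 and 59 and tumour cells it still stood at 17.2 and 14.0 CPM of kept cells in macro-metastatic, against 7.16 and 8.78 in control libraries. Col5a3 rose by 3.19 against control (SE 0.673, adjusted p = 0.01296) and by 2.97 against pre-metastatic livers (adjusted p = 0.02521), on levels of 0.933 and 2.44 CPM in macro-metastatic, against 0.0889 and 0.286 in control libraries. The call against control was lost without the first control library (adjusted p = 0.07842), and that against pre-metastatic livers without either pre-metastatic library or the second macro-metastatic library (adjusted p from 0.0635 to 0.1376). Col24a1, a fibrillar collagen of developing bone and cornea, was called only against pre-metastatic livers (3.63, adjusted p = 0.04449), and only without the first macro-metastatic library did that call hold among the fits that left out a library (adjusted p from 0.08721 to 0.1914 in the others).

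Of the type VI genes, Col6a2 and Col6a6 rose against control. Col6a2 stood at 0.756 and 1.84 CPM in control, 0.308 and 1.47 in pre-metastatic libraries and 3.90 and 13.4 in macro-metastatic libraries, a log2 fold change of 2.76 against control (SE 0.888, adjusted p = 0.04945) and 3.34 against pre-metastatic livers (adjusted p = 0.04615). Col6a6 stood at 0.0889 and 0.358 in control, 0.226 and 0.908 in pre-metastatic libraries and 1.92 and 3.14 in macro-metastatic libraries (3.54 against control, SE 0.847, adjusted p = 0.01961). Both Col6a2 calls were lost without either control library or the second macro-metastatic library (adjusted p from 0.08484 to 0.2293), the call against pre-metastatic livers also without either pre-metastatic library (0.15 and 0.05614), and the Col6a6 call without either control library (0.1109 and 0.05409). Cluster 58 held 55.4% of Col6a2, 54.5% of Col6a6, 40.4% of Col6a1 and 49.8% of Col6a3 UMIs over all libraries, at 552 and 586 CPM of Col6a1 and 439.6 and 508 of Col6a2.

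Col15a1 stood at 0.734 and 0.597 CPM of all barcodes in control, 2.19 and 1.37 in pre-metastatic libraries and 3.49 and 4.83 in macro-metastatic libraries, with no overlap between the 3 groups. It rose by 2.66 against control (SE 0.341, adjusted p = 0.002835) and 1.34 against pre-metastatic livers (adjusted p = 0.03072). The first call held without each library in turn, and the second held only without the first macro-metastatic library (adjusted p from 0.06032 to 0.1471 in the others). Col7a1, the collagen of anchoring fibrils, had 60 UMIs in all and was called at 2.68 against control (SE 0.587, adjusted p = 0.01459) and 3.89 against pre-metastatic livers (adjusted p = 0.01188). Its macro-metastatic levels were 0.270 and 0.330 CPM, against 0.0667 and 0.0239 in control libraries. The first call was lost without either control library or the second macro-metastatic library (adjusted p from 0.0528 to 0.1065) and with DESeq2 (0.06071) and the second without either pre-metastatic library (0.1005 and 0.09362).

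The 4 genes that fell were Col18a1, Col17a1, Col4a4 and Col4a3. Col18a1 stood at 22.3 and 12.96 CPM in control, 11.8 and 8.56 in pre-metastatic libraries and 1.92 and 6.01 in macro-metastatic libraries, a log2 fold change of −2.16 against control (SE 0.543, adjusted p = 0.02305). Within kept cells alone it stood at 9.44 and 4.22 CPM in control, 9.39 and 4.73 in pre-metastatic libraries and 1.27 and 5.10 in macro-metastatic libraries, and the groups overlapped. Hepatocytes, its main holders in control and pre-metastatic livers, numbered 687 and 575 in control, 899 and 693 in pre-metastatic libraries and 16 and 100 in macro-metastatic libraries. Within hepatocytes it stood at 70.7 and 40.9 in control, 77.6 and 58.4 in pre-metastatic libraries and 0 and 56.4 in macro-metastatic libraries. The 0 of the first macro-metastatic library comes from only 16 cells, and no loss of Col18a1 per hepatocyte is read from it. The 56.4 of the second lay between the control values. Its annotated span overlaps Slc19a1 on the other strand, and the strand setting of the counting was not given in the sources used here. Col17a1, the hemidesmosome collagen, changed by −1.99 (SE 0.558, adjusted p = 0.0321), Col4a4 by −2.39 (SE 0.680, adjusted p = 0.03366) and Col4a3 by −2.64 (SE 0.707, adjusted p = 0.0279). Without the first control library the adjusted p of these 4 genes lay between 0.07717 and 0.1199, and without the second control or the first macro-metastatic library all but Col18a1 lost the call (from 0.07141 to 0.1597). The other members tested over all barcodes, 21 genes in all with the 2 type IV genes below, were called in no comparison, and their log2 fold changes against control lay between −0.86 and 4.37.

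Col4a1 and Col4a2 were not called over all barcodes. Col4a1 stood at 127 and 159 CPM in control, 85.9 and 142 in pre-metastatic libraries and 157 and 218 in macro-metastatic libraries (log2 fold change 0.42 against control, adjusted p = 0.2821), and the groups overlapped. Col4a2 differed by 0.43 (adjusted p = 0.2275). Of the other 10 most counted genes over all barcodes, Col13a1 ranged from 32.6 to 92.5, Col14a1 from 4.07 to 22.4 and Col27a1 from 8.02 to 15.4 CPM, and none of the 3 was called. Col8a1 held 663 of its 692 UMIs in the second macro-metastatic library and did not pass the test (4.37, SE 1.99, adjusted p = 0.1245; −1.49 without that library).

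In Kupffer cells Col4a1 and Col4a2 ran opposite to endothelium, while Col4a3 and Col4a4 were called lower in both classes. Of 18 collagen genes tested, 5 rose and 9 fell in macro-metastatic against control livers (background 38.9%, with 20.5% higher and 18.5% lower), where 6 and 8 were called without the first and the second control library, and 5 rose and 5 fell against pre-metastatic livers (background 34.1%, with 18.2% higher and 15.9% lower). Kupffer Col4a1 stood at 98.6 and 99.6 CPM in control, 67.0 and 90.4 in pre-metastatic libraries and 10.4 and 10.9 in macro-metastatic libraries. Kupffer Col4a2 stood at 52.0 and 47.3 in control, 37.5 and 48.0 in pre-metastatic libraries and 4.88 and 5.96 in macro-metastatic libraries, and Kupffer Col13a1 at 48.1 and 47.3 in control, 27.0 and 52.3 in pre-metastatic libraries and 1.98 and 3.72 in macro-metastatic libraries. For all 3 genes the macro-metastatic libraries lay below the other 4. The summed level of the 15 endothelial markers in Kupffer cells was 6098 and 5798 CPM in control, 3894 and 5674 in pre-metastatic libraries and 917 and 1025 in macro-metastatic libraries, and 13 of the 15 were detected in at least 10% of the cells. The part of these endothelial transcripts in the Kupffer result was not tested. Against control, log2 fold changes were −3.02 for Col4a1 (SE 0.172, adjusted p = 1.208e-05), −3.00 for Col4a2 (SE 0.186, adjusted p = 1.597e-05) and −3.87 for Col13a1 (SE 0.372, adjusted p = 0.0001223). Control and pre-metastatic Kupffer cells lay mostly in clusters 9 and 11 and macro-metastatic ones in cluster 5.

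Col5a2 fell in Kupffer cells as well (−1.96, adjusted p = 0.003777), as did Col4a4 (−4.14), Col4a3 (−5.12), Col23a1 (−2.82), Col17a1 (−2.90) and Col14a1 (−1.11), with adjusted p from 0.003904 to 0.01777. The Col4a3 value rests on 1 macro-metastatic UMI (ratio 0.0184, exact 95% counting interval 0.000434 to 0.123). Col17a1 and Col23a1 encode transmembrane collagens. The genes called higher were Col1a1 (4.92), Col1a2 (2.29), Col11a2 (2.499), Col15a1 (2.25) and Col3a1 (1.94), with adjusted p from 0.005061 to 0.04487. The Col1a1 value rests on 1 control UMI (ratio 29.9, exact 95% counting interval 5.28 to 1190). Kupffer Col1a2 stood at 2.16 and 4.93 CPM in macro-metastatic, against 0.935 and 0.679 in control libraries, and the macro-metastatic B cells had 1.46 and 16.4. Against pre-metastatic livers the same 5 genes were called higher, and Col4a1, Col4a2, Col13a1, Col5a2 and Col17a1 lower. None was called in pre-metastatic against control Kupffer cells (background 0.401%; 4 at an unadjusted p under 0.05; DESeq2 called none). Kupffer Col27a1 ranged from 6.97 to 11.5 and Col20a1 from 2.55 to 4.52 CPM, and neither was called.

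The other tested classes held few collagen UMIs. In basophils and mast cells 3 of 3 genes tested fell in macro-metastatic against control (background 30.8%) and against pre-metastatic livers (background 31.1%). Their Col4a1 stood at 317 and 148 CPM in control, 166 and 289.9 in pre-metastatic libraries and 14.4 and 26.2 in macro-metastatic libraries, and their endothelial marker sum at 13014 and 7947 in control, 7701 and 15846 in pre-metastatic libraries and 581 and 456 in macro-metastatic libraries. The part of these endothelial transcripts in the lower values was not tested. When cells of this class were gated one by one on markers, 9 of 37 and 28 of 49 passed in control libraries. In pre-metastatic libraries 62 of 117 and 16 of 57 passed, and in macro-metastatic ones 33 of 58 and 84 of 124. The class name thus rests on only part of its cells. Log2 fold changes against control were −2.97 for Col4a1, −2.92 for Col4a2 and −2.78 for Col13a1, with adjusted p from 0.001101 to 0.009191, and against pre-metastatic livers −2.94, −3.10 and −2.64, with adjusted p from 0.0005284 to 0.009887. None was called in pre-metastatic against control livers (background 0%), none had an unadjusted p under 0.05 in edgeR's test, and DESeq2 called none. Beside them, the most counted genes of this class were Col11a2, Col5a2, Col27a1, Col20a1, Col1a2, Col3a1 and Col15a1, each at or below 30.5 CPM.

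In plasmacytoid dendritic cells Col17a1, the only gene tested, stood at 14.0 and 22.5 CPM in control, 33.3 and 29.0 in pre-metastatic libraries and 0 and 1.62 in macro-metastatic libraries. It fell by 3.54 on the log2 scale against control (adjusted p = 0.01755, background 13.4%) and by 4.25 against pre-metastatic livers (adjusted p = 0.00175, background 12%), on 1 macro-metastatic UMI. The ratio to control was 0.0703 (exact 95% counting interval 0.00168 to 0.449). Between pre-metastatic and control livers it was not called (background 0.161%; unadjusted p not under 0.05), and DESeq2 called it in no comparison. Neither comparison called it without the second macro-metastatic library, nor the first without the second control library. The next most counted genes there, Col23a1, Col20a1, Col4a1, Col13a1, Col4a2, Col11a2, Col15a1, Col1a2 and Col27a1, ranged from 0 to 14.0 CPM. In T cells 3 of 8 genes rose against control (background 27.3%), 0 without the second macro-metastatic and 1 without the first control library. Col3a1 changed by 5.06 (adjusted p = 0.0042) on 1 control UMI (ratio 43.3, exact 95% counting interval 7.12 to 1780), Col1a1 by 3.47 (adjusted p = 0.005262) and Col4a2 by 1.497 (adjusted p = 0.04462), and Col3a1 was called against pre-metastatic livers as well (3.85, adjusted p = 0.01455, background 21.7%). None was called in pre-metastatic against control T cells (background 0.323%), with 0 at an unadjusted p under 0.05 in edgeR's test and 0 called by DESeq2. The macro-metastatic T cell levels, 4.31 and 4.73 of Col3a1, 3.08 and 6.22 of Col1a1 and 6.77 and 11.9 of Col4a2, lay near those of B cells, which had 2.91 and 8.55 of Col3a1, 5.82 and 5.70 of Col1a1 and 14.6 and 17.8 of Col4a2.

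B cells themselves were called for Col4a2, 1 of 4 genes tested (1.83, SE 0.543, adjusted p = 0.02548, background 17.9%), at 14.6 and 17.8 CPM in macro-metastatic, against 4.41 and 4.99 in control libraries, and the call was lost without either control library or the second macro-metastatic library. None was called against pre-metastatic B cells (background 13.4%; 2 at an unadjusted p under 0.05 in edgeR's test) or in pre-metastatic against control B cells (background 0.243%; 0 at an unadjusted p under 0.05), and DESeq2 called 0 in each of the 3 comparisons. In conventional dendritic cells Col1a2 alone of 9 genes was called, against pre-metastatic livers (3.26, adjusted p = 0.03108, background 13.9%), at 3.80 and 4.42 in macro-metastatic, against 0.605 and 0.278 in pre-metastatic libraries, 3 UMIs in all (ratio 9.56, exact 95% counting interval 2.93 to 49.4). It was not called by DESeq2, nor without any 1 of the macro-metastatic or pre-metastatic libraries. Against control none of the 9 was called in macro-metastatic (background 12.2%; 2 at an unadjusted p under 0.05 in edgeR's test) or pre-metastatic livers (background 0.00952%; 0 at an unadjusted p under 0.05), and DESeq2 called 0 in both. Their most counted collagen was Col27a1, at 22.8 and 39.7 in control, 10.6 and 27.3 in pre-metastatic libraries and 9.11 and 9.40 in macro-metastatic libraries. Of the 6 collagen genes tested in monocytes and macrophages and the 4 tested in neutrophils, edgeR's test called none in any comparison. In monocytes and macrophages, 2 had an unadjusted p under 0.05 in macro-metastatic against control (background 4.99%), 0 in pre-metastatic against control (background 0%) and 2 in macro-metastatic against pre-metastatic livers (background 8.68%), and DESeq2 called 1 in the first of these and 0 in the others. In neutrophils 0, 0 and 1 had an unadjusted p under 0.05 in the same comparisons (backgrounds 10.2%, 0% and 10.7%), and DESeq2 called 0. Their most counted members, Col4a1, Col4a2, Col13a1, Col20a1 and Col1a2, ranged from 0 to 35.7 CPM. No collagen gene had enough counts to be tested in NK cells or plasma cells. NK cells held 26 of the 100 UMIs of Col8a2 in kept cells, a chain known from corneal and vascular matrix.

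Genes that modify, cut or bind collagen were counted from 3 lists. Of the 29 listed genes of collagen modification and crosslinking, 23 were tested in endothelium, and 12 rose and none fell in macro-metastatic against control livers, with a median log2 fold change of 1.22 (all genes tested: 16.7% higher, 9.61% lower, median −0.02). P4hb and P4ha2, subunits of prolyl 4-hydroxylase, which stabilises the helix, changed by 1.25 (SE 0.164, adjusted p = 0.001612) and 1.81 (SE 0.240, adjusted p = 0.001736). Pcolce, an enhancer of propeptide removal, changed by 1.56 (SE 0.227, adjusted p = 0.002479) and Plod3, a lysyl hydroxylase, by 1.28 (SE 0.193, adjusted p = 0.002928). Against pre-metastatic livers 10 rose and none fell (all genes tested: 11.3% higher, 3.58% lower), led by P4hb (1.68, adjusted p = 0.0008633), P4ha2 (1.86, adjusted p = 0.002979), Plod3 (1.38, adjusted p = 0.003893) and Pcolce (1.43, adjusted p = 0.006536). Without either control library 5 of these genes were called against control, and without either pre-metastatic library 3 against pre-metastatic livers. P4hb, which also acts as a general protein folding enzyme, was called higher against control in neutrophils (1.44, adjusted p = 0.02153) and in monocytes and macrophages (1.79, adjusted p = 0.01475) as well. In TMM-scaled CPM, its macro-metastatic and control means were 199 and 77.8 in T cells and 207 and 74.0 in B cells. They were 422 and 112 in NK cells, 581 and 272 in plasma cells and 495 and 142 in basophils and mast cells. In plasmacytoid dendritic cells they were 422 and 179, and in conventional ones 423 and 173. Those of Plod3 were 13.9 and 5.53 in B cells, 9.60 and 3.94 in T cells and 21.1 and 11.1 in conventional dendritic cells. The rises of P4hb and Plod3 were thus not particular to endothelium.

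Of 17 listed genes of collagen cleavage and its inhibitors, 13 were tested in endothelium, and 7 rose and 1 fell against control (median 1.13; all genes tested: 16.7% higher, 9.61% lower), with 3 called without either control library. Timp1, an inhibitor of metalloproteinases, changed by 4.98 (SE 0.422, adjusted p = 0.0002858), the collagenase Mmp8 by 6.14 (SE 0.726, adjusted p = 0.001027), the cathepsin Ctsb by 1.13 (SE 0.185, adjusted p = 0.004179) and the gelatinase Mmp9 by 4.54 (SE 0.883, adjusted p = 0.008502). Mmp8 and Mmp9 are granule proteins of neutrophils, and the summed level of 11 neutrophil markers in the endothelial class was 3.74 and 7.75 CPM in control, 73.6 and 44.8 in pre-metastatic libraries and 638 and 386 in macro-metastatic libraries. Their part in these values was not tested. Timp3, a matrix-bound inhibitor, fell (−0.55, adjusted p = 0.04295). Against pre-metastatic livers Timp1 (2.69, adjusted p = 0.002743) and Mmp8 (2.58, adjusted p = 0.01774) rose. Macro-metastatic and control means of Ctsb, in TMM-scaled CPM, were 386 and 177 in B cells, 474 and 271 in T cells and 491 and 189 in NK cells. They were 1208 and 360 in plasma cells and 660 and 592 in conventional dendritic cells. Lower macro-metastatic means were seen in basophils and mast cells (529 and 729) and plasmacytoid dendritic cells (3025 and 3411). A higher Ctsb was thus not particular to endothelium.

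Of 14 listed collagen receptors, 11 were tested in endothelium, and 3 rose and none fell against control (median 0.43), a share near the 26.4% called of all genes tested. These were Cd44 (2.72, SE 0.205, adjusted p = 0.0001816), the integrin chain Itgb3 (4.39, SE 0.463, adjusted p = 0.0006295) and the inhibitory receptor Lair1 (1.38, SE 0.416, adjusted p = 0.04164). In macro-metastatic neutrophils, TMM-scaled means were 1968 CPM for Cd44, 21.9 for Lair1 and 6.22 for Itgb3. In macro-metastatic monocytes and macrophages they were 1917, 121 and 3.34. The part of leukocyte transcripts in the endothelial receptor values was not tested. Cd44 was the only gene of the 3 lists called between pre-metastatic and control endothelium (1.51, SE 0.205, adjusted p = 0.04016), a call lost without any 1 of the control or pre-metastatic libraries, and it rose again in macro-metastatic against pre-metastatic endothelium (1.20, adjusted p = 0.006275), as did Itgb3 (2.36, adjusted p = 0.009079), neither of which was called without either pre-metastatic library.

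In Kupffer cells, where 20.5% of all genes tested were called higher and 18.5% lower against control, 8 of 22 tested modifying genes rose and 6 fell, among them Colgalt1 (1.46) and Plod1 (1.504) higher and Colgalt2 (−4.86) and Loxl2 (−2.87) lower. Of 13 tested cleavage genes 4 rose and 3 fell, with log2 fold changes of 3.12 for Mmp19, 2.56 for Mmp8, −5.00 for Timp3 and −2.46 for Mmp14, and of 10 tested receptors 1 rose (Cd44, 1.08) and 2 fell (Itga1, −4.37, and Cd36, −1.93). Timp3 was also lower in pre-metastatic than in control Kupffer cells (−1.35, adjusted p = 0.04155). The summed endothelial markers of Kupffer cells fell too, as given above. Their part in the lower Kupffer values of these lists, in any comparison, was not tested. In basophils and mast cells, macro-metastatic and control means were 33.2 and 666 TMM-scaled CPM for Timp3 and 24.1 and 290 for Cd36. Those of Mmp14 were 20.6 and 84.2 there, and those of Itga1 81.7 and 223. Over all barcodes, where 22% of all genes tested were called higher and 20% lower against control, 14 of 29 modifying genes rose and 1 fell, 10 of 16 cleavage genes rose and 1 fell, and 4 of 14 receptors rose and 2 fell, led by P4hb (1.81), Colgalt1 (1.60), Plod1 (1.43) and Plod3 (2.13), by Mmp19 (3.30), Mmp8 (5.33), Mmp9 (3.21) and Ctsb (1.41), and by Cd44 (2.19), Itgav (0.74), Lair1 (1.08) and, lower, Itga2 (−2.10). In macro-metastatic against pre-metastatic livers, the leading genes were P4hb, Plod1, Plod3 and Colgalt1 (0.96 to 2.04), Timp1, Mmp8, Mmp19 and Mmp9 (1.60 to 5.70) and Itga2 (−1.76) over all barcodes, and P4hb (2.13), P4ha2 (2.19), Colgalt2 (−4.01) and Loxl2 (−2.69), Mmp19 (2.13), Mmp12 (2.00), Timp3 (−3.65) and Mmp14 (−2.13), and Itga1 (−4.24), Cd36 (−1.70), Sdc1 (2.48) and Itgb3 (−1.47) in Kupffer cells. In monocytes and macrophages, the cathepsin Ctsl rose against control (1.75, adjusted p = 0.03114, background 4.99%). Against pre-metastatic livers (background 8.68%), P4hb (2.08, adjusted p = 0.005205), Plod1 (1.41, adjusted p = 0.04089), Ctsl (1.30, adjusted p = 0.04524) and Sdc1 (3.53, adjusted p = 0.01788), a syndecan that binds collagen, rose there. In neutrophils, Ctsb (1.66, adjusted p = 0.002814), Ctsl (0.92, adjusted p = 0.03733) and the inhibitor gene Timp2 (1.47, adjusted p = 0.03923) rose against control (background 10.2%). Against pre-metastatic livers (background 10.7%), neutrophil values of the called genes were 1.55 for P4hb (adjusted p = 0.00767), 1.69 for Colgalt1, 1.53 for Ppib, 2.35 for Pcolce2 and 0.85 for Ctsb, the last 4 with adjusted p from 0.02517 to 0.04555.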

How the data were processed

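Raw UMI counts of every gene in every barcode were deposited by the authors. The submitters' processing notes list CASAVA 1.8, UMI-tools and genome build mm10, and name no aligner, annotation or strand setting. Kept barcodes had at least 300 genes and less than 25% of UMIs from mitochondrial genes. Predicted doublets, found against simulated pairs, were removed. Cells were grouped without collagen genes (scanpy 1.11.5 with 2000 variable genes, 30 components and 15 neighbours, then leidenalg 0.10.2 at resolution 1 on igraph 0.11.9, in Python 3.11.15), into 56 clusters. Mesenchymal cells were grouped again on 1500 variable genes and 15 components at resolution 0.5. To be named, a cluster needed 3 markers of the class, each found in 10% or more of the cells, and no lead of another class among its top 10 genes. Clusters with more than 30% doublets were set apart. Libraries were not integrated.

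Class sums of each library went into edgeR 4.0.16 (R 4.3.3), with filterByExpr, TMM factors and the quasi-likelihood test. P-values were adjusted by Benjamini-Hochberg across the genes tested in a class, and a call is an adjusted p under 0.05. Each fit held the 6 libraries and had 3 residual degrees of freedom. The 11 classes with 20 or more cells in every library were tested. Where a library was left out, the lone sample of its group was assumed to vary like the other groups. No exact permutation test was run, since 2 libraries against 2 give no p below 0.3333. Intervals (exact Poisson or binomial, 95%) and floors (3 counts) cover counting error only. The fit was also tested on simulated data, but no outcome is given here and no support is drawn from it. Every called collagen gene and the 10 most counted of each tested class were named, and of each pathway list up to 4 called genes by adjusted p, in the endothelial, Kupffer, monocyte and macrophage and neutrophil classes and over all barcodes. Members, lists and tests were chosen with earlier results of these data known. Promoter sequences matched 31 of 38 members by symbol.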

Additional observations from a re-analysis of the deposited data

Results flagged for a closer look

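Opposite changes in 2 cell classes stood out for 3 genes. Log2 fold changes of Col4a1 in macro-metastatic against control livers were 1.21 in endothelial cells and −3.02 in Kupffer cells, a difference of 4.23, and against pre-metastatic livers 0.95 and −2.73, a difference of 3.68. For Col4a2 they were 1.24 and −3.00, a difference of 4.24, and against pre-metastatic livers 0.81 and −2.83, a difference of 3.63. For Col5a2 they were 2.05 and −1.96 in macro-metastatic against control livers, a difference of 4.02. Each difference itself was not tested. The summed endothelial markers of Kupffer cells moved with these genes, with 917 and 1025 CPM in macro-metastatic, against 6098 and 5798 in control libraries.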

How the results depend on the processing

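Endothelial Col4a1 and Col4a2, macro-metastatic against control, kept their call under all 14 alternatives, with log2 fold changes from 1.03 to 1.30 and from 1.06 to 1.34. Over all barcodes, Col5a2 kept both calls and Col15a1 its call against control under all 11. In endothelium and over all barcodes, no value called in either fit changed sign, while 94 uncalled log2 fold changes did, among them endothelial Col13a1 against control. Leaving out a library gave 2 to 15 called collagen genes over all barcodes and 3 to 10 in endothelium for macro-metastatic against control, 1 to 11 and 0 to 6 for macro-metastatic against pre-metastatic, and 0 and 0 to 1 for pre-metastatic against control. DESeq2 called 17 over all barcodes for macro-metastatic against pre-metastatic, and 3 over all barcodes and 1 in endothelium for pre-metastatic against control. Without a filter on low counts 3 were called in endothelium for pre-metastatic against control. With a 10% mitochondrial limit, the summed collagen level of control livers was 998 in endothelium and 6606 in stellate cells and fibroblasts, against 939 and 4148 at 25%. The causes were not tested.

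Correlations of same-numbered deviations ran from −0.0377 to 0.1905 in endothelium and from −0.0545 to 0.2129 over all barcodes. They are low over all genes but cannot settle whether replicate numbers pair the samples. Over all barcodes, the summed collagen CPM was higher in the second than in the first library of each group. With the replicate number as a block, 19, 1 and 19 genes were called over all barcodes and 8, 0 and 5 in endothelium, for macro-metastatic against control, pre-metastatic against control and macro-metastatic against pre-metastatic. Of 1944 refitted log2 fold changes of single genes in endothelium and over all barcodes, 1786 stayed on their side of the threshold, 77 lost and 81 gained a call. These refits include the many values that the main fit did not call. Most calls of the main fit in endothelium and over all barcodes were lost under some alternative, and the exceptions are the calls named above as kept. For the other classes, refits of single genes are not summarised here. The 10% limit, the library totals and the refits of the pathway lists were chosen after seeing the data. The planned tests of stellate cells and fibroblasts, and of their difference from endothelium, were not run because libraries held under 20 such cells.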
